A study of Danio rerio with 7 samples.

Results

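The genes described here belong to the methionine cycle, to the steps that feed methyl groups and serine into it, and to the glycine cleavage system. They were chosen by symbol, as *ahcy*, *amt*, *cth*, *bhmt*, *gnmt*, *mat1a*, *cbsb*, *shmt1*, *gcsh* and *gldc*, after the contrast between the genotypes had been seen. Of the 33737 gene IDs in the tables, 10 carried 9 of these 10 symbols, because *cth* marked 2 neighbouring IDs and *gcsh* marked none, so *gcsh* was not analysed here. Its copy *gcsha* had 0 counts in every library, which allows up to 0.0936 to 0.140 CPM by counting error alone. All 10 IDs passed the filter on low counts.

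By the authors' account, RNA was sequenced from zebrafish hearts at 96 h post-fertilization (hpf). There were 3 control and 4 *cora* libraries, each made from pooled hearts. The tissue is labelled heart, while the sample titles speak of embryos. *cora* embryos were homozygous for *cora stl325*, a recessive nonsense mutation in *taf5*, which encodes a subunit of the general transcription factor TFIID. Control embryos were their unaffected clutchmates, labelled WT, among which heterozygous carriers may be included. Embryos of both groups carried the *Tg(cmlc2::gfp)* reporter, in which a cardiomyocyte promoter drives GFP. Replicate numbers in the labels run from 1 to 4 for *cora*, whereas of the control libraries only those numbered 1 and 3 have one and the last is called the unnumbered control here. Nothing in the labels ties libraries to separate clutches, so the tests measure the spread between these pools, which may be partly technical.

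The methionine cycle turns methionine into S-adenosylmethionine, the methyl donor of most cellular methylation reactions, and then into S-adenosylhomocysteine and homocysteine. Homocysteine is either methylated back to methionine or passed through transsulfuration to cysteine. The glycine cleavage system breaks glycine down in mitochondria and hands its carbon to folate, which also links both pathways to serine. In mammals the liver carries much of this flux and has its own isozymes, whereas other tissues use general forms of the same enzymes.

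Libraries held 21474488 to 32037220 counts. *taf5* had 8.83, 5.10 and 5.27 CPM in control libraries 1, 3 and the unnumbered one, and 1.97, 3.10, 3.70 and 4.56 CPM in *cora* libraries 1 to 4. CPM are counts scaled to a common library total, after adjustment of the library sizes by TMM (trimmed mean of M-values). All 4 *cora* libraries lay below every control library, with a log2 fold change of -0.94 ± 0.38 (SE) and an adjusted p of 0.232 (edgeR quasi-likelihood test, Benjamini-Hochberg). A heart sample should be rich in cardiomyocyte transcripts, but the cardiomyocyte markers took 0.102% to 0.457% of the counts. Their list lacks several heart muscle genes whose symbols were not matched, but its 15 IDs include *myl7*, *cmlc1*, *myh6*, *tnnt2* and *actc1a*. Liver markers took 0.478% to 3.57% and epidermis markers 1.19% to 3.41%. Control library 1 stood apart in its mitochondrially encoded genes, with 33.7% of its counts against 16.8% to 21.8% in the other libraries.

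The values of the members chose them, so the counts below are a description. By edgeR's quasi-likelihood test at a Benjamini-Hochberg adjusted p under 0.05 over all 21632 genes tested, 2 of the 10 members were lower in *cora*, beside 0.86% of all genes, and 0 were higher, beside 1.11%. Without adjustment, 6 had p under 0.05 with a lower level and 1 with a higher level in *cora*, beside 8.61% and 9.13% of all genes. The groups did not overlap for 2 members that were lower and 1 that was higher in *cora*, beside 8.73% and 9.01% of all genes. Since the same contrast picked the members, nothing is read from these counts. The median log2 fold change was -1.08 over the members and -0.03 over all genes tested. In bulk samples such as these pools, fewer cells of a type and less RNA per cell cannot be told apart.

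**Figure D1:**
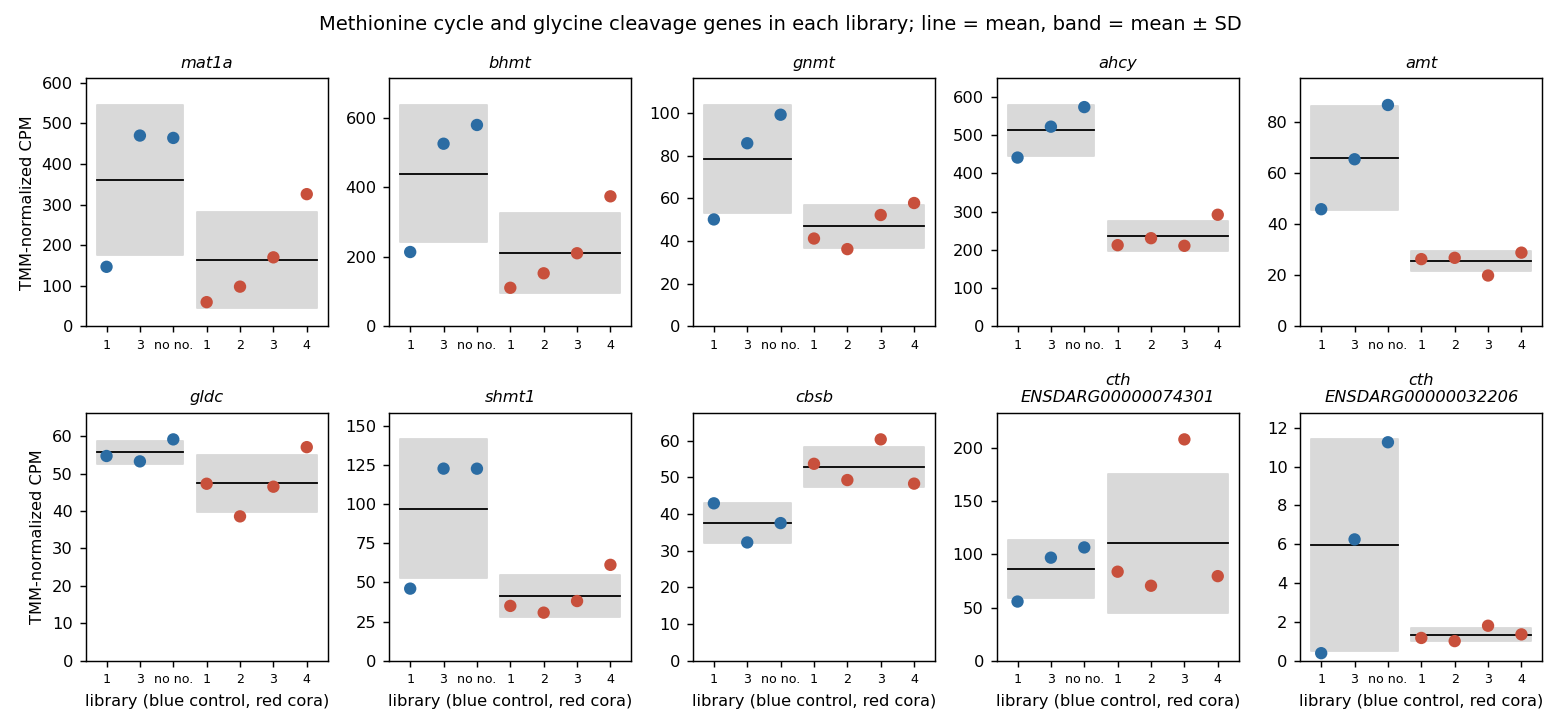
TMM-normalized CPM (y axis, linear from 0) of the 10 member IDs in 3 control libraries (blue; 1, 3 and the unnumbered one, marked "no no.") and 4 *cora* libraries (red), with the group mean as a line and the mean ± SD as a band. *ahcy* and *amt* are lower and *cbsb* is higher in every *cora* library than in any control library, and the other members overlap.

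The first member of the cycle is *mat1a* (ENSDARG00000039605, chromosome 13, 18677893 to 18686217, minus strand, Zv9), the methionine adenosyltransferase that makes S-adenosylmethionine in adult mammalian liver. Its level was 147, 470 and 464 CPM in control libraries 1, 3 and the unnumbered one, and 59.5, 97.7, 170 and 326 CPM in *cora* libraries 1 to 4. The groups overlapped, since control 1 was below *cora* 3 and 4. The log2 fold change was -1.14 ± 0.58 (SE), with an adjusted p of 0.351 (edgeR quasi-likelihood test, Benjamini-Hochberg). Over the 7 libraries the level spanned 7.90-fold, the widest range of the members after one of the *cth* IDs.

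*gnmt* (ENSDARG00000006840, chromosome 17, 49077695 to 49091737, minus strand) encodes glycine N-methyltransferase, which uses up S-adenosylmethionine by methylating glycine and is abundant in mammalian liver. It had 50.2, 85.9 and 99.3 CPM in the control libraries, in the same order, and 41.2, 36.2, 52.2 and 57.9 CPM in *cora* libraries 1 to 4. Control 1 lay among the *cora* values, and the other control libraries lay above them all. *cora* differed from control by -0.74 ± 0.28 on the log2 scale (SE; adjusted p = 0.203, edgeR quasi-likelihood test, Benjamini-Hochberg).

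*ahcy* (ENSDARG00000005191, chromosome 6, 49877781 to 49917954, plus strand) encodes adenosylhomocysteinase, which removes the S-adenosylhomocysteine that every methyl transfer leaves behind and is expressed in most tissues. Its level was 441, 522 and 573 CPM in the control libraries and 212, 230, 211 and 292 CPM in *cora* libraries 1 to 4. The groups were well apart, and the highest *cora* library stayed below the lowest control library. The fitted level in *cora* was 46.1% of that in control, with means of 236 ± 38.1 against 512 ± 66.6 CPM (SD, n = 4 and 3). This is a log2 fold change of -1.12 ± 0.22 (SE), with an adjusted p of 0.0432 (edgeR quasi-likelihood test, Benjamini-Hochberg). Its exons share 107 bases with *si:dkey-16n21.5* on the other strand, which had 0 to 5 counts in any library. This call was lost when any one of control 3, the unnumbered control, *cora* 1, *cora* 2 or *cora* 3 was left out (adjusted p of 0.102 to 0.194), and kept without control 1 or *cora* 4.

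*bhmt* (ENSDARG00000013430, chromosome 21, 286522 to 291633, minus strand) encodes betaine-homocysteine methyltransferase, which returns homocysteine to methionine with betaine as the methyl donor, in mammals mainly in liver and kidney. The control libraries had 214, 525 and 579 CPM and *cora* libraries 1 to 4 had 111, 152, 210 and 374 CPM. As for *mat1a*, control 1 was the lowest control and *cora* 4 the highest *cora* library, and they crossed. On the log2 scale the difference was -1.05 ± 0.46 (SE; adjusted p = 0.276, edgeR quasi-likelihood test, Benjamini-Hochberg).

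The transsulfuration members had values on either side of 0. *cbsb* (ENSDARG00000010946, chromosome 9, 9404591 to 9450364, minus strand), one of the zebrafish copies of cystathionine beta-synthase, which joins homocysteine to serine, had 42.9, 32.3 and 37.5 CPM in the control and 53.7, 49.3, 60.4 and 48.3 CPM in the *cora* libraries. Each *cora* library was above each control library, by a log2 fold change of 0.49 ± 0.19 (SE; adjusted p = 0.224, edgeR quasi-likelihood test, Benjamini-Hochberg).

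*cth* encodes cystathionine gamma-lyase, which releases cysteine from cystathionine. Its 2 IDs lie beside each other on the minus strand of chromosome 6, ENSDARG00000032206 at 37338031 to 37351792 and ENSDARG00000074301 at 37357906 to 37371189, and how reads common to both were counted is not known, so their separate values are uncertain. ENSDARG00000074301 had 55.7, 97.0 and 107 CPM in the control and 83.8, 70.5, 208 and 79.6 CPM in the *cora* libraries. *cora* 3 alone lay above the controls. Its log2 fold change was 0.36 ± 0.42 (SE) with all libraries and -0.15 without *cora* 3. ENSDARG00000032206 was far lower, with 0.4, 6.3 and 11.3 CPM in the control and 1.2, 1.0, 1.8 and 1.4 CPM in the *cora* libraries. Here control 1 was below every *cora* library and the other controls were above them. Its log2 fold change was -2.16 ± 0.80 (SE; adjusted p = 0.202, edgeR quasi-likelihood test, Benjamini-Hochberg), and it came to -2.70 to -0.23 over the other settings tried.

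Of the glycine cleavage system, *amt* and *gldc* were measured. *amt* (ENSDARG00000010862, chromosome 8, 27249495 to 27261613, plus strand) encodes the aminomethyltransferase, or T-protein, which passes the glycine carbon to tetrahydrofolate. It had 45.9, 65.5 and 86.7 CPM in the control and 26.3, 26.8, 19.9 and 28.9 CPM in the *cora* libraries. The *cora* libraries lay close together and all below the lowest control. The fitted level in *cora* was 38.6% of that in control, with means of 25.5 ± 3.88 against 66.0 ± 20.4 CPM (SD, n = 4 and 3). This is a log2 fold change of -1.37 ± 0.25 (SE; adjusted p = 0.0366, edgeR quasi-likelihood test, Benjamini-Hochberg). As for *ahcy*, the call was lost without any one of control 3, the unnumbered control, *cora* 1, *cora* 2 or *cora* 3 (adjusted p of 0.0759 to 0.165).

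*gldc* (ENSDARG00000035120, chromosome 5, 69158109 to 69190378, plus strand) encodes the decarboxylase, or P-protein, which starts glycine cleavage. Its level was 54.7, 53.3 and 59.16 CPM in the control and 47.3, 38.6, 46.5 and 57.1 CPM in the *cora* libraries. *cora* 4 lay among the controls and the others below them, and the whole range was 1.53-fold, the narrowest of the members. *cora* minus control was -0.23 ± 0.19 on the log2 scale (SE; adjusted p = 0.588, edgeR quasi-likelihood test, Benjamini-Hochberg).

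*shmt1* (ENSDARG00000052816, chromosome 3, 40255711 to 40270853, minus strand) encodes the cytosolic serine hydroxymethyltransferase, which interconverts serine and glycine. It had 46.0, 123 and 123 CPM in the control and 35.0, 30.7, 38.1 and 61.2 CPM in the *cora* libraries. Control 1 lay below *cora* 4, and the other controls were above all *cora* libraries. Its log2 fold change was -1.24 ± 0.37 (SE; adjusted p = 0.128, edgeR quasi-likelihood test, Benjamini-Hochberg), and this gene passed with DESeq2, with limma voom and sample quality weights and, by edgeR, without control 1 (adjusted p of 0.0382, 0.00614 and 0.0249).

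Divided by exon length, the members can be set against each other as RPKM (reads per kilobase of exon at a common library total, here from the TMM-normalized CPM). In control libraries the mean level ran from *bhmt* (294 ± 132 RPKM) and *ahcy* (267 ± 34.6) through *mat1a* (143 ± 73.5), *gnmt* (61.2 ± 19.8), *shmt1* (51.1 ± 23.3) and the higher *cth* ID (47.3 ± 14.8) to *amt* (32.9 ± 10.2), *gldc* (18.8 ± 1.04), *cbsb* (12.4 ± 1.76) and the lower *cth* ID (3.21 ± 2.92; SD, n = 3). The SDs of neighbours in this order overlapped for *bhmt* and *ahcy* and for all steps from *mat1a* down to *amt*, and not elsewhere. In *cora* libraries *bhmt* (142 ± 77.2 RPKM) and *ahcy* (123 ± 19.8) again led, followed by *mat1a* (64.8 ± 46.7), the higher *cth* ID (60.5 ± 35.8), *gnmt* (36.6 ± 7.74) and *shmt1* (21.7 ± 7.19; SD, n = 4). *amt* came to 12.7 ± 1.93 RPKM in *cora*, below *cbsb* at 17.5 ± 1.82 and overlapping with *gldc* at 16.0 ± 2.56, whereas it was above both in the control libraries.

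*gnmt*, *mat1a* and *bhmt*, grouped as liver-restricted when the genes were chosen, were set against *ahcy*, the general one, within each library. Their mean log2 level minus that of *ahcy* was -1.92, -0.92 and -0.94 in the control libraries and -1.71, -1.50, -0.77 and -0.61 in *cora* libraries 1 to 4. The low values belonged to control 1, *cora* 1 and *cora* 2, and the groups overlapped. The means were -1.26 ± 0.58 and -1.15 ± 0.54 (SD, n = 3 and 4), a difference of 0.11 on the log2 scale against a pooled SD of 0.55. Taken one by one, the *cora* minus control value of this difference was 0.41 for *gnmt*, -0.12 for *mat1a* and 0.05 for *bhmt*. The SDs in control and *cora* libraries were 0.33 and 0.27 for *gnmt*, 0.79 and 0.90 for *mat1a*, and 0.61 and 0.58 for *bhmt*. For *gnmt* the difference thus exceeded either SD, though *cora* 2 (-2.67) lay below control 3 (-2.60) and the unnumbered control (-2.53). For the mean of these members the difference was within the pooled SD, and no test was run. The grouping was made with the contrast known, so the comparison is a description. Over the 7 libraries the level of *gnmt* spanned 2.74-fold, against 5.23-fold for *bhmt*, 7.90-fold for *mat1a* and 7.34-fold for the summed liver markers.

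The liver markers also varied within each group. Their summed level was 10963, 31519 and 33631 CPM in the control and 4582, 6555, 13298 and 32623 CPM in the *cora* libraries, a 7.34-fold range. Control 1 was therefore below *cora* 3, and *cora* 4 was as high as the other controls. Of 30 marker IDs, 27 were tested, and 22 of them had a log2 fold change below 0, beside 52.2% of all genes. The test was passed by 1 as lower in *cora* and by 0 as higher, beside 0.86% and 1.11% of all genes. A copy of *cpn1*, 1 ID, had 0 counts in every library. The median log2 fold change of the list was -1.03. The part of the liver markers' difference in the members' values was not tested.

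The summed liver markers had means of 25371 CPM in control and 14265 CPM in *cora* libraries. Of these, *apoa2* gave 10231 and 4728 CPM, and *tfa* gave 5403 and 3315 CPM. Ratios to single markers were not computed, and 5 of the 27 tested had a log2 fold change above 0. *mat1a* kept nearly one ratio to the sum. Its log2 ratio to the sum was -6.16 ± 0.08 in control and -6.32 ± 0.24 in *cora* libraries (SD, n = 3 and 4), while its level spanned 7.90-fold. The corresponding ratio of *bhmt* was -5.82 ± 0.12 in control and -5.81 ± 0.51 in *cora*, with the level spanning 5.23-fold. *gnmt* and *ahcy* had narrower ranges of level, 2.74-fold and 2.72-fold, and their ratios spread more widely, by SDs of 0.40 and 0.73 in control and 0.99 and 1.08 in *cora*. *shmt1* kept its ratio among the controls (SD 0.10) and not among the *cora* libraries (SD 0.88). Ratios were also computed for some other pathway genes. There *cora* minus control was -0.38 for *sardh*, -0.58 for *gamt*, -1.05 for *grhprb*, -1.06 for *ftcd*, and -1.27 and -1.32 for the *agxt* IDs. Among the members it was highest for *cbsb*, at 1.58.

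Control 1 and *cora* 3 had similar summed liver marker levels (10963 and 13298 CPM), and so had control 3, the unnumbered control and *cora* 4. Control 1 and *cora* 3 differed otherwise, with 33.7% and 17.7% of their counts mitochondrial and 0.560% and 0.0976% on exocrine pancreas markers. The members are set side by side at these like sums of liver markers, chosen after the values were seen and not tested. Some single markers were far apart within these pairs, in either direction. *fabp10a* was at 568 CPM in control 1 and 207 CPM in *cora* 3, and *fgg* at 195 and 847 CPM. *uox* was at 709 CPM in control 3 and 261 CPM in *cora* 4, and *fgg* at 617 and 1361 CPM. Between control 1 and *cora* 3, *mat1a* was at 147 and 170 CPM, *bhmt* at 214 and 210 CPM and *gnmt* at 50.2 and 52.2 CPM, with *shmt1* at 46.0 and 38.1 CPM. In the same pair *ahcy* was at 441 and 211 CPM and *amt* at 45.9 and 19.9 CPM. *cora* 4 was compared in the same way with control 3 and the unnumbered control, and there these 6 members were all lower in *cora*, whereas *gldc* lay between the controls and *cbsb* above them. *ahcy* was at 292 CPM against 522 and 573, *amt* at 28.9 against 65.5 and 86.7, and *mat1a* at 326 against 470 and 464 CPM. *bhmt* was at 374 CPM against 525 and 579, *gnmt* at 57.9 against 85.9 and 99.3, and *shmt1* at 61.2 against 123 and 123 CPM.

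**Figure D2:**
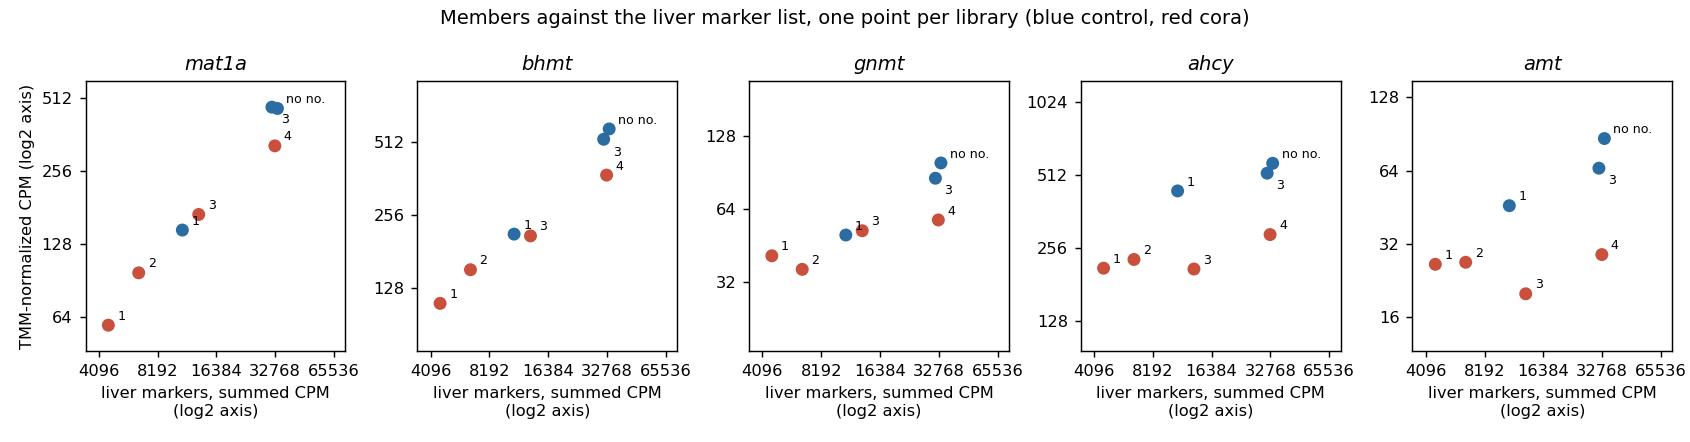
TMM-normalized CPM of *mat1a*, *bhmt*, *gnmt*, *ahcy* and *amt* (y axes) against the summed CPM of the liver marker list (x axes), both on log2 axes of which each y axis covers the same number of doublings, with 1 point per library (blue control, red *cora*; "no no." is the unnumbered control). All 5 genes are lower in *cora* 4 than in the 2 controls of like summed marker level. Between control 1 and *cora* 3, *ahcy* and *amt* are lower in *cora* while *mat1a*, *bhmt* and *gnmt* are close. These libraries were picked after the values were seen, and no test was run.

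Markers of some other tissues also differed between the genotypes, of which exocrine pancreas and lens were picked after their values were seen. Exocrine pancreas markers took 0.560% to 2.61% of the counts in control and 0.0800% to 0.169% in *cora* libraries, without overlap, and none of the 12 IDs was at 0 in every library. Of these 12 IDs, 11 passed the test as lower in *cora*, beside 0.86% of all genes, with a median log2 fold change of -4.96. Lens markers took 0.0319% to 0.0544% in control and 0.149% to 2.04% in *cora*. All 8 IDs had a log2 fold change above 0, and 6 passed the test as higher, beside 1.11% of all genes. Among intestine, kidney, epidermis, skeletal muscle, neuron, endothelium, leukocyte and cardiomyocyte markers, 0 IDs passed. Of 6 erythrocyte IDs, 1 passed as lower, beside 0.86% of all genes. The split of the libraries by pancreas markers is the same as by *ahcy* and *amt*, namely the split by genotype. Of all genes tested, 8.73% were lower in *cora* with that split. The part of these tissues in the result was not tested.

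For 2 of the steps the files held a general or second isozyme. The *mat2a* gene, which encodes the methionine adenosyltransferase of most mammalian tissues, is represented by 2 zebrafish IDs. ENSDARG00000040334 had 209, 92.5 and 101 CPM in the control and 159, 190, 169 and 157 CPM in the *cora* libraries, with control 1 highest and the other controls lowest. Its log2 fold change was 0.33 ± 0.30 (SE), and that of ENSDARG00000037121 was -0.10 ± 0.32 (SE), with adjusted p-values of 0.632 and 0.916 (edgeR quasi-likelihood test, Benjamini-Hochberg). On the RPKM scale *mat1a* made up 52.2%, 86.9% and 85.3% of *mat1a* plus *mat2a* in the control and 36.6%, 44.2%, 60.4% and 73.6% in the *cora* libraries. Control 1 again fell among the *cora* values. Summed *mat2a* was 37.7 ± 13.6 RPKM in control and 45.1 ± 3.37 RPKM in *cora* libraries (SD, n = 3 and 4). The *mat2a*-like gene *mat2al* came to 31.0 ± 1.98 and 37.4 ± 13.8 RPKM. With it included, the share of *mat1a* was 40.3%, 76.0% and 75.2% in the control and 21.6%, 27.5%, 48.8% and 64.5% in the *cora* libraries. *mat2b*, the regulatory subunit, had 28.3, 31.6 and 28.7 CPM in the control and 21.9, 20.2, 23.0 and 18.4 CPM in the *cora* libraries, without overlap (log2 fold change -0.50 ± 0.18, SE; adjusted p = 0.193, edgeR quasi-likelihood test, Benjamini-Hochberg).

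For cystathionine beta-synthase the 2 copies had opposite signs. The other copy, *cbs* (ENSDARG00000053500), had 24.6, 62.4 and 70.6 CPM in the control and 4.6, 14.4, 8.6 and 21.3 CPM in the *cora* libraries. All *cora* libraries were below the lowest control, by a log2 fold change of -2.10 ± 0.52 (SE), which did not pass the test (adjusted p = 0.0770, edgeR quasi-likelihood test, Benjamini-Hochberg). It passed with DESeq2, with voom and sample quality weights, and without control 1 or *cora* 4 (adjusted p of 0.00255, 0.00495, 0.0315 and 0.0430). On the RPKM scale *cbsb* made up 65.4%, 36.0% and 36.6% of both copies in the control and 92.7%, 78.8%, 88.4% and 71.1% in the *cora* libraries. The larger share in *cora* thus held in every library, with control 1 nearest to it. The log2 ratio to the summed liver markers was -8.89 ± 0.09 in control and -9.99 ± 0.83 in *cora* libraries for *cbs*. For *cbsb* it was -9.25 ± 1.08 and -7.66 ± 1.29 (SD, n = 3 and 4).

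The rest of the pathways, in 7 lists chosen with earlier results known, comprised 78 IDs, of which 76 were tested. In *cora*, 1 of them was lower and 2 were higher, beside 0.86% and 1.11% of all genes. The median log2 fold change was -0.27, with 49 below 0, beside 52.2% of all genes. The gene that fell was *sardh* (ENSDARG00000058102), sarcosine dehydrogenase, which oxidises the sarcosine that *gnmt* makes. It had 12.9, 21.4 and 25.1 CPM in the control and 6.57, 6.43, 6.47 and 8.25 CPM in the *cora* libraries, with a log2 fold change of -1.51 ± 0.27 (SE; adjusted p = 0.0352, edgeR quasi-likelihood test, Benjamini-Hochberg). The *cora* libraries lay close together, all below the lowest control, as for *amt*.

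*ahcyl2a* (ENSDARG00000051873), which encodes a protein related to adenosylhomocysteinase that in mammals has regulatory rather than hydrolase functions, was among the genes that rose. It had 5.90, 6.58 and 7.56 CPM in the control and 13.8, 13.3, 18.3 and 15.3 CPM in the *cora* libraries. Its log2 fold change was 1.18 ± 0.24 (SE; adjusted p = 0.0432, edgeR quasi-likelihood test, Benjamini-Hochberg), so it was higher in 4 of 4 *cora* libraries while *ahcy* was lower in all of them. The related genes *ahcyl1* and *ahcyl2b* had log2 fold changes of -0.26 ± 0.23 and -0.01 ± 0.20 (SE) and overlapping groups. Per length *ahcyl2b* was the more abundant *ahcyl2* copy, at 18.6 ± 1.67 RPKM in control and 18.5 ± 2.96 in *cora* libraries, against 1.398 ± 0.17 and 3.18 ± 0.48 RPKM for *ahcyl2a* (SD, n = 3 and 4).

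*mthfd1l* (ENSDARG00000042221), the mitochondrial formyltetrahydrofolate synthetase, was the other gene that rose. The control libraries had 4.65, 7.28 and 4.38 CPM and *cora* libraries 1 to 4 had 12.9, 13.9, 19.0 and 18.6 CPM, with no overlap. Its log2 fold change was 1.56 ± 0.29 (SE; adjusted p = 0.0381, edgeR quasi-likelihood test, Benjamini-Hochberg). It stood at the upper end of the 17 folate cycle genes, whose median was -0.18, and *ftcd*, a folate enzyme of histidine breakdown in mammalian liver, stood at the lower end, at -1.91 ± 0.79 (SE). All 3 calls were lost without any one of control 3, the unnumbered control, *cora* 1, *cora* 2 or *cora* 3, and that of *ahcyl2a* also without *cora* 4.

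**Figure D3:**
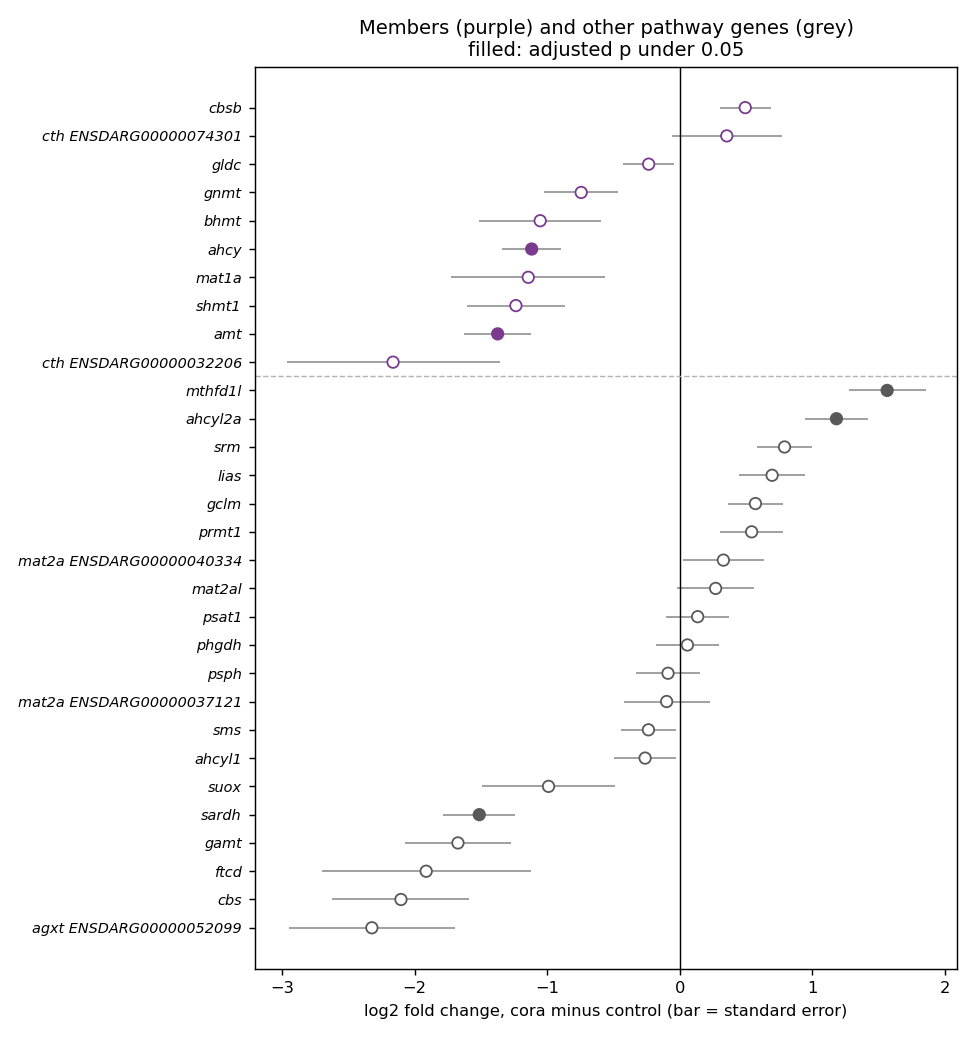
Log2 fold change of *cora* against control libraries (x axis) with its standard error, for the 10 member IDs (purple, above the dashed line) and 20 other pathway IDs (grey), with filled points where the adjusted p was under 0.05. Members reach from -2.16 to 0.49 and the other genes from -2.32 to 1.56.

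The lists differed in their medians. Among 12 genes of choline, betaine, sarcosine and methyl group use, 11 had a log2 fold change below 0 (median -0.68), beside 52.2% of all genes. Of them 1, *sardh*, passed edgeR's test as lower, beside 0.86% of all genes. DESeq2 called 3 lower, *aldh7a1*, *gamt* and *sardh*, and 1789 of all genes in either direction. The lowest of the 12 was *gamt*, which makes creatine with S-adenosylmethionine, at -1.67 ± 0.40 (SE; adjusted p = 0.0695, edgeR quasi-likelihood test, Benjamini-Hochberg). The highest was *prmt1*, a protein arginine methyltransferase, at 0.54 ± 0.24 (SE). *gamt* had 192, 428 and 458 CPM in the control and 84.9, 73.2, 108 and 185 CPM in the *cora* libraries, without overlap.

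Of 16 genes of glycine and serine use, 12 were below 0 (median -0.60), beside 52.2% of all genes, and 0 passed edgeR's test. Without adjustment 4 below and 1 above 0 had p under 0.05 by that test, beside 8.61% and 9.13% of all genes. Over all genes, in either direction, DESeq2 called 1789 and limma voom 388. Of these 16 genes DESeq2 called 3 lower, *grhprb* and both *agxt* IDs, and limma voom 0. They ranged from *agxt* (ENSDARG00000052099), an alanine-glyoxylate aminotransferase, at -2.32 ± 0.63 (SE), to *lias*, the lipoyl synthase whose product the glycine cleavage system needs, at 0.70 ± 0.25 (SE). *lias* had 11.97, 14.9 and 15.3 CPM in the control and 17.0, 19.3, 27.5 and 27.5 CPM in the *cora* libraries, so that its groups did not overlap although it missed the threshold (adjusted p = 0.186, edgeR quasi-likelihood test, Benjamini-Hochberg).

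The 3 genes of serine synthesis had values near 0, *phgdh* at 0.06 ± 0.24, *psat1* at 0.14 ± 0.24 and *psph* at -0.09 ± 0.24 on the log2 scale (SE), and 0 of them passed by edgeR, DESeq2 or limma voom or had p under 0.05 without adjustment. Of 9 transsulfuration and cysteine genes, 6 were below 0 (median -0.28), beside 52.2% of all genes. They ranged from *suox*, sulfite oxidase, at -0.99 ± 0.50 to *gclm*, the modifier subunit of the enzyme that starts glutathione synthesis, at 0.57 ± 0.21 (SE). The list of methionine salvage, which recovers methionine from polyamine synthesis, also held the polyamine synthesis genes *amd1*, *srm* and *sms*. Its other genes were *mtap* at 0.23 ± 0.21, *mri1* at 0.77 ± 0.50, *adi1* at 0.76 ± 0.26 and *enoph1* at -0.02 ± 0.20 (SE). The whole list had 5 of 7 genes above 0, beside 10338 of all 21632 genes, and its median of 0.57 was the value of *amd1* (± 0.39, SE). Its highest was *srm*, spermidine synthase, at 0.79 ± 0.21 (SE; adjusted p = 0.0880, edgeR quasi-likelihood test, Benjamini-Hochberg), and its lowest was *sms*, spermine synthase, at -0.24 ± 0.21 (SE). *srm* had 16.4, 22.9 and 24.2 CPM in the control and 37.8, 37.0, 32.9 and 38.9 CPM in the *cora* libraries. Among the 12 other methionine cycle genes and isozymes the median was -0.06, with *cbs* lowest and *ahcyl2a* highest.

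**Figure D4:**
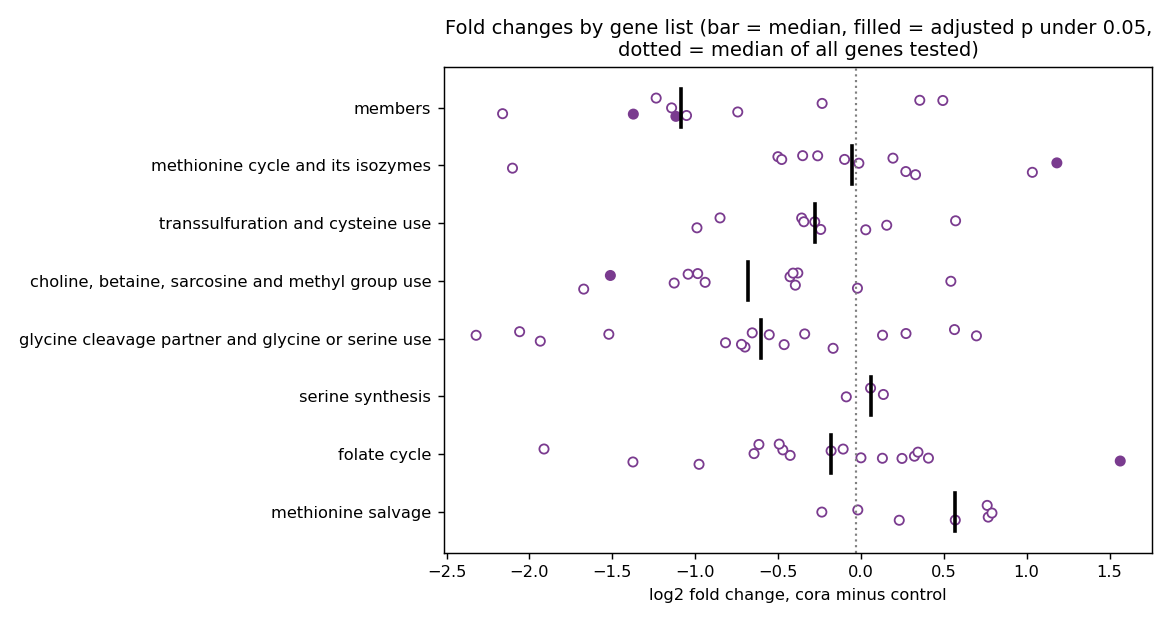
Log2 fold changes of *cora* against control libraries (x axis) for the members and for 7 lists of other pathway genes (rows; points are gene IDs, spread vertically for legibility), with the list median as a bar, filled points at an adjusted p under 0.05 and the median of all genes tested as a dotted line. The members, chosen from this contrast, have a median of -1.08. The other lists run from -0.68 for methyl group use to 0.57 for methionine salvage, a list that includes polyamine synthesis genes.

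By likeness of log2 CPM over the 7 libraries, among 12348 genes with a symbol and sufficient level, the genes nearest to *ahcy* were *fam210b*, *si:dkey-166k12.1* and *bfb* (Pearson's r of 0.995, 0.993 and 0.990). The nearest to *amt* were *selenou1a*, *entpd8* and *foxj1b* (0.995, 0.988 and 0.987), and to *gnmt* were *slc2a3a*, *epha6* and *slc32a1* (0.994, 0.992 and 0.991). These are descriptions over 7 points that share the genotype groups and library scaling, and 318, 258 and 341 genes had an r above 0.9 with *ahcy*, *amt* and *gnmt*.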

How the data were processed

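The authors deposited 1 table per library, with Ensembl gene IDs, exon positions and 3 values per gene. The counts, as deposited, are whole reads per gene without normalization. CPM and RPKM, as deposited by the authors, are counts scaled to a common library total, and the same divided by exon length. The deposited CPM was not used and the deposited RPKM served only as an alternative scale, since the CPM and RPKM given here were recomputed from the counts with TMM scaling. The submitters' processing notes name STAR 2.0.4b, featureCounts 1.4.5, Subread, edgeR and limma, in no stated role. Strand handling is not given in the sources used here, so genes that overlap on opposite strands cannot be told apart. Scaffold names and gene ends are those of Zv9. Symbols matched 21939 of 33737 IDs.

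In R 4.3.3, edgeR 4.0.16 fitted all 7 libraries without covariate (TMM, filterByExpr, glmQLFit, glmQLFTest, prior count 0.125) and p-values were adjusted by Benjamini-Hochberg over 21632 genes. The SE given with a log2 fold change is its absolute value divided by the square root of the F statistic of that test. It is therefore not a measure made apart from the test. A count of 3 in a library corresponds to 0.0936 to 0.140 CPM, which covers counting error only. Alternatives were other scalings and filters, DESeq2 1.42.0, limma 3.58.1 voom, leaving out each library, the mitochondrial genes left out, and a replicate block. Members, lists and tests were chosen with earlier results of these data known. Named were all members, a set of isozymes and partners (*mat2a*, *cbs*, *ahcyl1*, *ahcyl2a*, *phgdh*, *psat1*) whatever their value, in each list the genes that passed and the lowest and highest, and for *ahcy*, *amt* and *gnmt* the 3 most alike genes. *ahcyl2b*, *mat2b*, *gcsha*, *grhprb*, *aldh7a1*, *amd1*, *mtap*, *mri1*, *adi1*, *enoph1* and the other *agxt* ID were named after their values were seen. So were the liver markers *apoa2*, *tfa*, *fabp10a*, *fgg* and *uox*. *shmt2*, *mtr* and *dldh*, whose symbols were not matched, were not analysed here.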

Additional observations from a re-analysis of the deposited data

Results flagged for a closer look

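Values of the 4 *cora* libraries were checked for 34 genes and summed levels, and 4 genes had a library whose distance from the nearest other, over the whole range, exceeded Dixon's critical value, which chance gives in about 1 in 20 sets. *cth* ENSDARG00000074301 was at 208 CPM in *cora* 3, against 70.5 to 83.8 CPM in the others. In *cora* 4, *ftcd* was at 189 CPM, against 21.6 to 37.7 CPM, and *mat2a* ENSDARG00000037121 was at 21.6 CPM, against 9.67 to 11.5 CPM. *sardh* was at 8.25 CPM in *cora* 4, against 6.43 to 6.57 CPM, and that value was still below every control library. *cora* 4 also held the highest liver marker level of the *cora* libraries (32623 CPM). The part of that difference in these values was not tested.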

How the results depend on the processing

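Of 169 log2 fold changes of a member under an alternative, 1 changed sign, *cth* ENSDARG00000074301 at -0.15 without *cora* 3 (-0.15 to 0.53 with 1 library left out). The 426 genes that differed at an adjusted p under 0.05 became 1789 with DESeq2 and 3113 with voom and sample quality weights, and 34 to 1207 with 1 library left out. The 2 lower members became 0 with library size alone, 6 with quality weights (3 with DESeq2) and 0 to 4 with 1 library left out, the 4 without control 1 being *ahcy*, *amt*, *shmt1* and *cth* ENSDARG00000032206. *cbsb* became the 1 higher member with quality weights. Of the other pathway genes, the 1 lower became 9 with DESeq2, 17 with quality weights and 0 to 7 with 1 library left out (7 without control 1 and 7 without *cora* 4). The 2 higher became 1 with library size alone, 4 with DESeq2, 7 with quality weights and 0 to 3 with 1 library left out. The causes of these changes were not tested. The log2 fold changes of *ahcy* stayed between -1.24 and -1.03 and those of *amt* between -1.56 and -1.13 over 17 alternatives, and each passed the test in 10 of them. The members grouped as liver-restricted, minus *ahcy*, ranged from -0.22 to 0.30 with 1 library left out. With the replicate number as a block in the libraries numbered 1 and 3, 0 genes passed edgeR's test, and so 0 members and 0 other pathway genes. Without adjustment, 5 of 10 members and 16 of 76 other pathway genes had p under 0.05 in either direction, beside 2101 of all 21404 genes tested there. Libraries of the same number deviated together little (r of 0.058 and 0.032), within the range of the other pairs (-0.195 to 0.176). With so few libraries these values cannot decide whether the numbers pair them, and the labels do not say.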
